A study of Mus musculus with 17 samples.

Results

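The genes examined were 8 members of the S100 family of small calcium-binding proteins: S100a1, S100a4, S100a6, S100a8, S100a9, S100a10, S100a11 and S100a13. They were taken by name, as the probe sets annotated to exactly 1 of these symbols, without use of their measured values. Each gene had 1 such probe set, so 8 probe sets stood for the 8 genes, among 28898 probe sets with a single symbol that covered 17097 genes. The 17 Affymetrix perfect-match arrays held RNA of mouse cells in 6 groups. All cells came from mice aged 6 to 10 weeks and were sorted by flow cytometry. From wild-type spleen came 3 pools of macrophages (CD11c-CD11b+MCSFR+) and 3 pools of granulocytes (CD11c-CD11b+Ly6C+MCSFR-). The other arrays held bone marrow myelo-dendritic progenitors (MDPs), the sorted population regarded as a source of monocytes, macrophages and dendritic cells, all gated as lineage-sca1-CD127-CD117+MCSFR+. They comprised 3 wild-type pools, 3 pools titled IRF8_ko_MDP with the genotype IRF8-deficient, 3 VENUS-positive pools titled IRF8_PAC_MDP and 2 VENUS-negative pools titled IRF8_neg_MDP. VENUS is a yellow fluorescent reporter protein. Both VENUS groups also carry the genotype label IRF8-deficient, and the labels do not say whether it refers to the reporter allele. Spleen, wild-type and knockout-labelled pools each held cells of 5 mice, and the labels give no such number for the VENUS pools. Levels are log2 values on the scale of robust multi-array averaging (RMA), so a difference of 1 is a doubling of signal.

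Most S100 proteins, though not all, bind calcium through a pair of EF-hand loops, act as dimers, and change shape on binding calcium so that partner proteins can dock. S100a8 and S100a9 form calprotectin, an abundant protein of the neutrophil cytosol that binds zinc and manganese and, once released, signals through Toll-like receptor 4 and the receptor RAGE. S100a4 binds non-muscle myosin and is known from motile cells, S100a6 binds calcyclin-binding protein, and S100a10 and S100a11 bind annexins at membranes. S100a1 is best known for regulating calcium release in muscle, and S100a13 for the export of FGF1 and interleukin-1 alpha without a signal peptide.

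The arrays were alike in scale, with medians of 4.33 to 4.48 and lower quartiles of 3.18 to 3.42, and the RMA values ran from 1.69 to 13.5. Wild-type MDP pool 3 differed from wild-type MDP pools 1 and 2 in marker genes of several cell types. Its mean over 16 neutrophil markers was 8.11, against 5.52 and 5.68 in wild-type pools 1 and 2, and its mean over 11 erythroid and megakaryocyte markers was 8.04 against 5.44 and 6.39. All 17 arrays share a single estimate of the spread, and without this pool the SE of S100a8 in macrophages minus granulocytes went from 1.37 to 0.63, so the results it touches are given with and without it. Irf8 itself, on a first probe set, stood at 10.34 ± 0.19 (SD, n = 3) in wild-type and 10.31 ± 0.12 (n = 3) in knockout-labelled MDPs. A second probe set had 10.07 ± 0.13 and 10.02 ± 0.15, so neither checks the knockout label. In VENUS-positive MDPs the first and second stood at 10.88 ± 0.19 and 10.68 ± 0.21 (n = 3). In VENUS-negative MDPs they were lower, at 5.87 ± 0.54 and 6.36 ± 0.77 (n = 2). VENUS-negative MDPs, although gated on the M-CSF receptor, had a Csf1r level of 4.96 ± 0.19 (n = 2), below the 7.35 to 7.89 of the other MDP group means. Their erythroid and megakaryocyte markers averaged 9.38 and 8.56 in the 2 pools, against 5.29 to 5.67 in the VENUS-positive pools, and their monocyte and macrophage markers (12 measured) averaged 4.56 and 4.66 against 7.02 to 7.07. In sorted pools, fewer cells of a type and less RNA per cell cannot be told apart.

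All 8 genes lie on mouse chromosome 3. S100a8 and S100a9 are direct neighbours in the RefSeq annotation, as are S100a11 and S100a10, and S100a1 and S100a13, while only S100a5 lies between S100a4 and S100a6. A RefSeq promoter window (GRCm38.p6) was at hand for 7 of the 8 members, S100a10 being the exception. The windows of the pair whose levels ran together, S100a8 and S100a9, and of the pair that was lower in VENUS-negative MDPs, S100a4 and S100a6, are printed from 130 bases before the annotated start through the first 20 bases of the transcript. Capitals mark TATAAA, the core of the TATA box, on the sense strand, and TTNNGNAA, a loose form of the C/EBP site, on either strand.
S100a8, chr3:90668941-90669090, plus strand: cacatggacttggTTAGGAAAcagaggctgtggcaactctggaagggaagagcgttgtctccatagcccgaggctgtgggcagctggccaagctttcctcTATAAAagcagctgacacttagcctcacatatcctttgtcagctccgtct
S100a9, chr3:90695702-90695851, minus strand: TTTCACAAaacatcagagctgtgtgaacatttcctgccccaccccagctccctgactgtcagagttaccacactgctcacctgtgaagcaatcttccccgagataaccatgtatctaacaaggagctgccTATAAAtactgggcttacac
S100a4, chr3:90603640-90603789, plus strand: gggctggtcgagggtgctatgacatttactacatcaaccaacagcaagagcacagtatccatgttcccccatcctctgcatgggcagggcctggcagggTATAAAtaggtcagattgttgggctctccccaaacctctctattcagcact
S100a6, chr3:90612764-90612913, plus strand: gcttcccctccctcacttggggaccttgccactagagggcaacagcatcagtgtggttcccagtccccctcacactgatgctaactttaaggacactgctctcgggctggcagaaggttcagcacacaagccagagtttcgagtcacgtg
Counted from the start, the TATAAA of S100a8 ran from base -30 to base -25 and that of S100a4 from base -31 to base -26. In S100a9 these letters began at the annotated start itself, and the S100a6 window held none. Over windows of 250 bases before to 50 after the start, TATAAA on the sense strand was present in 8.32% of 32851 RefSeq promoters and TTNNGNAA in 40.7%. S100a8 had 1 TTNNGNAA match in that window and S100a9 had 2, of which the one farther from the start lies outside the printed bases. The windows of S100a1 and S100a13 lie on opposite strands and share 204 of their 300 bases. These matches are letters in a window and were not linked to any measurement of binding.

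S100a8, the smaller calprotectin subunit, was highest on the granulocyte arrays, at 13.11, 13.37 and 13.47. It was the brightest of all probe sets on granulocyte arrays 2 and 3, so it lay at the upper end of the scale there. Spleen macrophages had 10.78, 8.69 and 9.70. Wild-type MDPs had 6.22, 3.62 and 11.87, a wider spread than in any other group, and the lowest of these lay 0.36 above the lower quartile of its array. Knockout-labelled MDPs had 9.48, 8.02 and 9.37, VENUS-positive MDPs 7.05, 6.38 and 6.84, and VENUS-negative MDPs 7.68 and 8.56. The granulocyte arrays stood above all others, and below them each group overlapped the next in the order macrophages, knockout-labelled, VENUS-negative, wild-type and VENUS-positive MDPs. The S100a8 probe set is of the type marked _s_at, whose probes can match more than 1 transcript.

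S100a9, the other calprotectin subunit, followed the same order of groups. Granulocytes had 13.02, 13.36 and 13.42, within 0.26 of the brightest probe set of each array, and macrophages 11.46, 9.79 and 10.38. Levels in wild-type MDPs were 6.37, 5.08 and 12.17, with pool 3 again far above the others. In knockout-labelled MDPs they were 9.71, 7.82 and 9.65, in VENUS-positive MDPs 7.55, 5.88 and 7.32, and in VENUS-negative MDPs 8.20 and 8.58. Here the macrophage arrays did not overlap the knockout-labelled ones. Across the 17 arrays S100a8 and S100a9 correlated at Pearson's r = 0.985 (Spearman's rho = 0.988), a description of arrays that include replicates and share the step between granulocytes and the rest.

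The levels of S100a8 and S100a9 were set beside the neutrophil marker list. It holds genes of mature neutrophils such as Ltf, Camp and Ngp, and also Mpo, Elane and Prtn3, primary granule genes made early in the lineage. The latter 3 were higher in wild-type MDPs than in granulocytes (Mpo at 12.65, 12.70 and 12.64 against 9.09, 7.48 and 9.86), so the mean of the list is not a measure of mature neutrophils alone. The marker means were 9.97 to 11.15 on the granulocyte arrays, 5.73 to 6.58 in macrophages, 6.47 to 6.83 in knockout-labelled, 5.53 to 5.76 in VENUS-positive and 5.31 to 5.65 in VENUS-negative MDPs. Macrophage pool 1 had the highest S100a8 and the highest marker mean of its group, and pool 2 the lowest of both. VENUS-negative MDPs had S100a8 and S100a9 levels above every VENUS-positive array, while their marker means were 5.31, below the VENUS-positive range, and 5.65, within it. Single markers went both ways, and their median VENUS-negative minus VENUS-positive difference was -0.21. At an adjusted p under 0.05, 0 of the 16 were higher and 1 was lower. Of all probe sets 5.46% were called, 2.56% higher and 2.89% lower. Ngp, at 4.54 and 5.57, lay above the VENUS-positive levels of 4.28, 3.87 and 4.14, and Camp, at 5.78 and 6.55, overlapped 5.83, 4.43 and 4.74. Elane, at 9.86 and 10.26, lay above the VENUS-positive levels of 9.47, 8.98 and 9.55, as Ngp did. Below all VENUS-positive levels lay Csf3r, at 4.52 and 5.40 against 6.32, 6.23 and 5.94, and also Mmp8, Mpo and Prtn3. The remaining markers overlapped. Camp, a neutrophil granule gene among the 3 most similar to S100a8, was at 6.89, 6.68 and 7.02 in knockout-labelled MDPs, and at 4.50, 5.34 and 10.55 in wild-type MDPs. The part of these markers in the S100a8 and S100a9 levels was not tested.

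**Figure D1:**
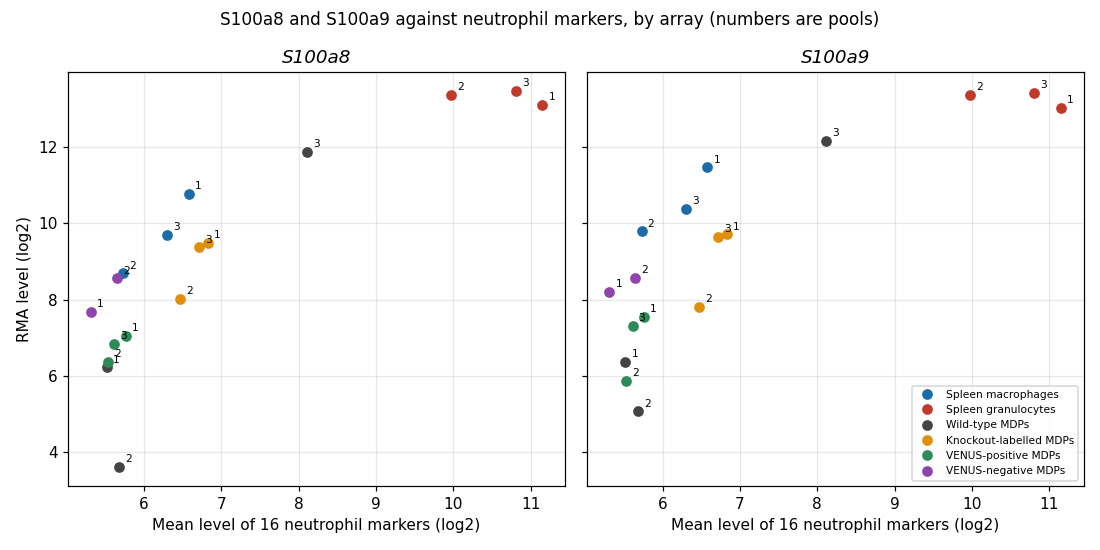
S100a8 and S100a9 levels (log2, vertical axes) against the mean log2 level of 16 neutrophil markers (horizontal axes), with 1 point per array coloured by group and numbered by pool. Wild-type pool 3 lies between the granulocytes and all other arrays, and the VENUS-negative arrays lie above the VENUS-positive ones at similar marker means.

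S100a4, which binds non-muscle myosin, separated the groups differently. Spleen macrophages had 12.37, 12.44 and 12.28, the highest levels of the gene, while granulocytes had 6.51, 7.32 and 7.02. In wild-type MDPs the levels were 6.83, 7.53 and 9.63, in knockout-labelled MDPs 8.73, 8.21 and 8.12, and in VENUS-positive MDPs 8.13, 7.85 and 8.41. VENUS-negative MDPs had 4.34 and 3.92, within 1.10 of the lower quartile of their arrays. Macrophages lay above and VENUS-negative MDPs below all other groups, and the 4 groups between them overlapped in order.

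S100a6, or calcyclin, was high in both mature spleen populations, at 11.79, 11.90 and 11.91 in macrophages and 12.19, 12.29 and 11.96 in granulocytes. Wild-type MDPs had 6.92, 6.58 and 9.72, and VENUS-positive MDPs 8.16, 7.26 and 8.47. Lower levels were found in knockout-labelled MDPs, at 6.36, 5.82 and 5.85, and the lowest in VENUS-negative MDPs, at 3.62 and 4.50. The wild-type and VENUS-positive arrays overlapped, and no other neighbours in the order did. The VENUS-negative pool 1 level lay 0.38 above the lower quartile of its array.

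S100a10, which pairs with annexin A2 at membranes, was lowest in granulocytes, at 6.44, 6.58 and 7.0, with no overlap with any other group. Macrophages had 9.64, 9.69 and 9.72. The MDP groups lay between them and overlapped in order, with VENUS-negative MDPs at 9.15 and 9.40, VENUS-positive MDPs at 8.65, 9.09 and 9.50, wild-type MDPs at 8.57, 8.55 and 9.05, and knockout-labelled MDPs at 8.61, 8.13 and 8.27. S100a11, a partner of annexin A1, was highest in granulocytes. Its levels were 12.97, 13.05 and 13.01 in granulocytes, 12.15, 12.02 and 11.79 in macrophages, and 10.64 to 11.43 in the 11 MDP arrays, whose groups overlapped.

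The remaining members were S100a1 and S100a13. S100a1 had 6.68, 7.50 and 6.96 in wild-type MDPs, 7.44, 6.92 and 7.16 in knockout-labelled, 6.48, 6.53 and 6.60 in VENUS-positive, and 5.68 and 7.28 in VENUS-negative MDPs. Its means were lower in the spleen, with 5.40, 6.20 and 6.37 in macrophages and 5.39, 4.06 and 3.60 in granulocytes, the last of these 0.21 above the lower quartile of its array. The macrophage levels overlapped those of VENUS-negative MDPs. S100a13 had the narrowest range of the 8, from 7.30 in granulocyte pool 2 to 8.68 in macrophage pool 3, and each group overlapped the next in the order of means.

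**Figure D2:**
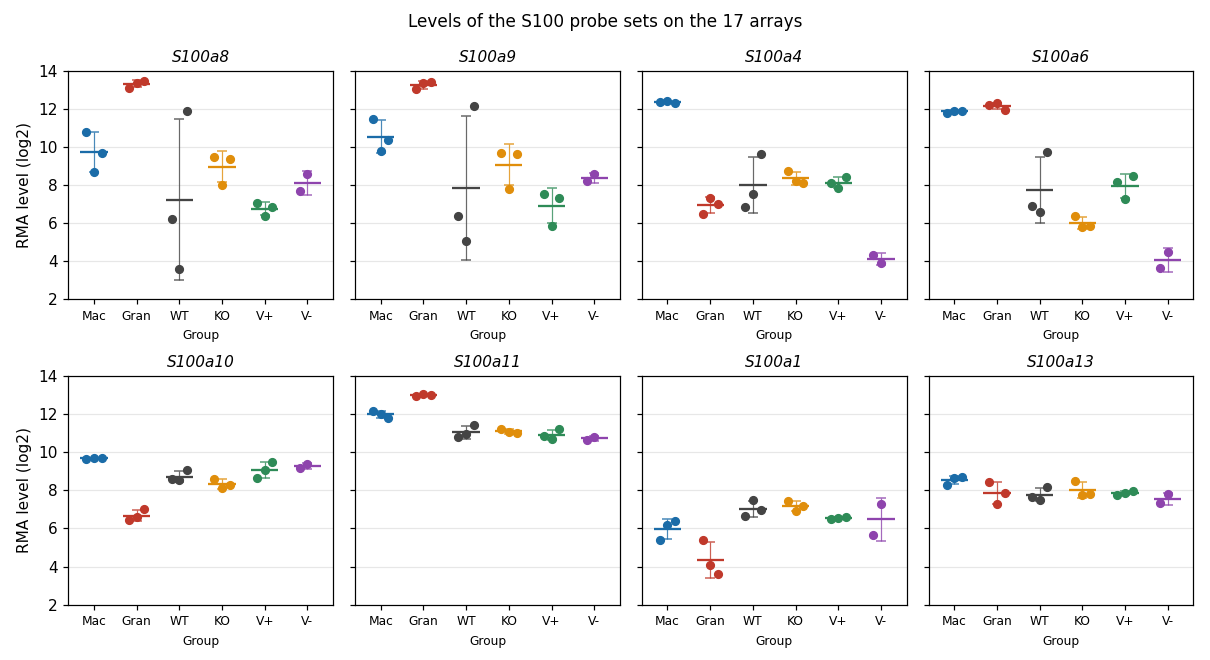
RMA levels (log2, vertical axes) of the 8 S100 probe sets on the 17 arrays, by group (Mac, spleen macrophages; Gran, spleen granulocytes; WT, KO, V+ and V-, wild-type, knockout-labelled, VENUS-positive and VENUS-negative MDPs). Points are pools, bars the group mean and whiskers the SD over pools (n = 3, or 2 for V-), and wild-type pool 3, the rightmost wild-type point, is far above its group in S100a8, S100a9, S100a4 and S100a6.

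The first comparison asked which S100 genes differed between knockout-labelled and wild-type MDPs. None of the 8 passed limma's test at a Benjamini-Hochberg adjusted p under 0.05, 1 had an unadjusted p under 0.05, and 0.716% of all 28898 probe sets were called, 0.343% higher and 0.374% lower in knockout-labelled MDPs. S100a8 averaged 8.96 ± 0.81 against 7.24 ± 4.22 (SD, n = 3 and 3), a log2 difference of 1.72 (SE 1.37, adjusted p = 0.861). S100a9 differed by 1.19 (adjusted p = 0.929), and S100a6 by -1.73 (SE 0.60, adjusted p = 0.325). S100a6 was the only member whose arrays did not overlap, as was so for 14.4% of all probe sets. Without wild-type pool 3, S100a8 was higher in knockout-labelled MDPs by 4.04 (SE 0.70, adjusted p = 0.0147) and S100a9 by 3.34 (SE 0.64, adjusted p = 0.0291). S100a4 then differed by 1.18 (adjusted p = 0.0943) and S100a6 by -0.74 (adjusted p = 0.561). That fit keeps wild-type S100a8 levels of 6.22 and 3.62, the latter 0.36 above the lower quartile of its array. With wild-type pool 2 left out in place of pool 3, S100a8 differed by -0.092 and S100a9 by -0.21 (adjusted p = 0.998 and 0.997). Each of these genes was called in 1 of 6 fits that left out a single array. The means of the neutrophil markers were 6.47 to 6.83 in the knockout-labelled pools and 5.52 and 5.68 in wild-type pools 1 and 2, and 1 of 16 markers was called, higher, in the fit of all arrays. Of 11 erythroid and megakaryocyte markers 4 were lower in knockout-labelled MDPs (median difference -1.92 over the list), with list means of 4.18 to 4.32 against 5.44, 6.39 and 8.04. The part of either list in the S100 differences was not tested.

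**Figure D3:**
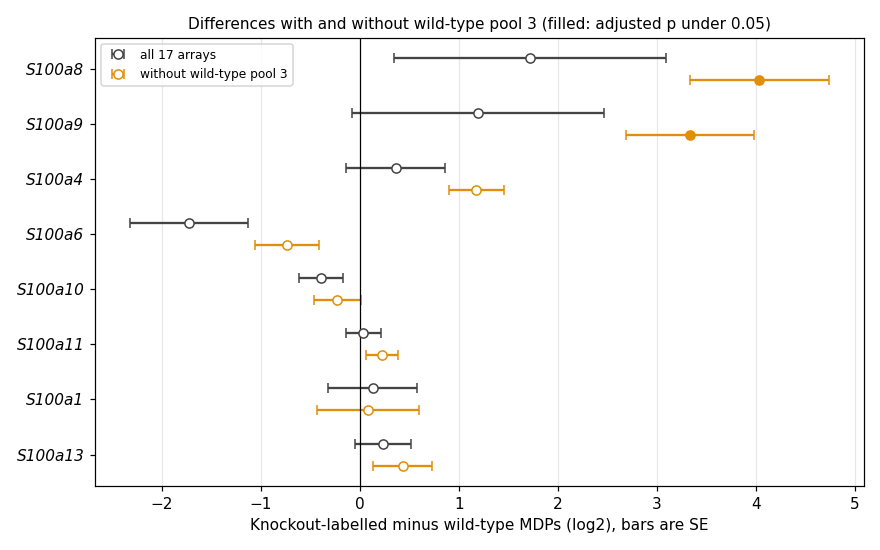
Knockout-labelled minus wild-type MDP differences (log2, horizontal axis) of the 8 genes from the fit of all 17 arrays (grey) and without wild-type pool 3 (orange), with bars of 1 SE; filled points have an adjusted p under 0.05. Leaving the pool out moves S100a8 from 1.72 to 4.04 and S100a9 from 1.19 to 3.34, the 2 filled points, while S100a6 moves from -1.73 to -0.74. Fits that leave out any other single array are not shown.

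In VENUS-negative minus VENUS-positive MDPs, S100a4 and S100a6 were lower and no member was higher. S100a4 averaged 4.13 ± 0.30 (SD, n = 2) against 8.13 ± 0.28 (n = 3), a log2 difference of -4.00 (SE 0.56, adjusted p = 4.35e-04). S100a6 averaged 4.06 ± 0.62 against 7.97 ± 0.63, a difference of -3.90 (SE 0.67, adjusted p = 0.00234). These correspond to 16-fold and 15-fold, against VENUS-negative levels that lay 0.38 to 1.25 above the lower quartile of their arrays. So 2 of 8 members were called, where 5.46% of all probe sets were called, 2.56% higher and 2.89% lower. The arrays of 4 members did not overlap, as for 28.6% of all probe sets, and besides these genes they were S100a8 (difference 1.37, SE 1.54, adjusted p = 0.778) and S100a9 (1.47, SE 1.42, adjusted p = 0.724). S100a10 differed by 0.20, with a 95% interval of -0.33 to 0.72, and S100a11 by -0.19, with an interval of -0.61 to 0.23. In the same comparison 7 of 12 monocyte and macrophage markers were lower and 7 of 11 erythroid and megakaryocyte markers were higher, and their part in the S100 differences was not tested.

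The difference between these effects, the knockout-labelled minus wild-type change less the VENUS-negative minus VENUS-positive change, was tested in the same fit. It was 4.36 for S100a4 (SE 0.75, adjusted p = 0.00401), made of a knockout-labelled minus wild-type difference of 0.36 and a VENUS difference of -4.00. Without wild-type pool 3 it was 5.18 and the knockout-labelled minus wild-type difference was 1.18, and without wild-type pool 1 these were 3.77 and -0.22. For S100a6 it was 2.18 (SE 0.89, adjusted p = 0.313), and 3.17 without wild-type pool 3 (adjusted p = 0.00138). With all arrays S100a4 was the only member of 8 called, against 3.10% of all probe sets, 1.54% above 0 and 1.55% below.

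Set directly against each other, knockout-labelled and VENUS-positive MDPs gave no called member by limma, with 2 at an unadjusted p under 0.05, where 1.82% of probe sets were called, 1.01% higher and 0.810% lower. S100a6 was at 6.01 ± 0.30 against 7.97 ± 0.63 (difference -1.95, SE 0.60, adjusted p = 0.146), and without wild-type pool 3 in the shared fit its adjusted p was 0.00267. S100a10 differed by -0.74 (adjusted p = 0.130), and by -0.96 without VENUS-positive pool 1 (adjusted p = 0.0472). S100a8 and S100a9 differed by 2.20 and 2.14 (adjusted p = 0.655 and 0.626). The arrays of 5 members did not overlap, S100a1, S100a6, S100a8, S100a9 and S100a10, as for 14.3% of all probe sets.

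Between the mature spleen populations, S100a4, S100a10 and S100a1 were higher in macrophages and S100a11 was higher in granulocytes. S100a4 averaged 12.36 ± 0.08 against 6.95 ± 0.41 (SD, n = 3 and 3), a difference of 5.41 or 42.6-fold (SE 0.50, adjusted p = 1.61e-06). S100a10 averaged 9.68 ± 0.04 against 6.67 ± 0.29, a difference of 3.01 or 8.07-fold (SE 0.22, adjusted p = 1.95e-07). S100a11 differed by -1.03 (SE 0.17, adjusted p = 4.32e-04). S100a1 differed by 1.64 (adjusted p = 0.0129), a call lost when macrophage pool 2 or 3 or granulocyte pool 2 or 3 was left out (adjusted p = 0.0508 to 0.0666). These 4 called members compare with 27.8% of all probe sets, 16.5% higher in macrophages and 11.3% lower. The calprotectin genes differed by -3.59 (S100a8, adjusted p = 0.0666) and -2.72 (S100a9, adjusted p = 0.131), with no overlap of arrays. Leaving wild-type pool 3 out of the shared fit, which does not enter this difference, gave adjusted p = 7.25e-04 and 0.00301. S100a6 differed by -0.28 (95% interval -1.56 to 1.00). In all 7 members other than S100a13 the arrays did not overlap, as for 46.8% of all probe sets.

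**Figure D4:**
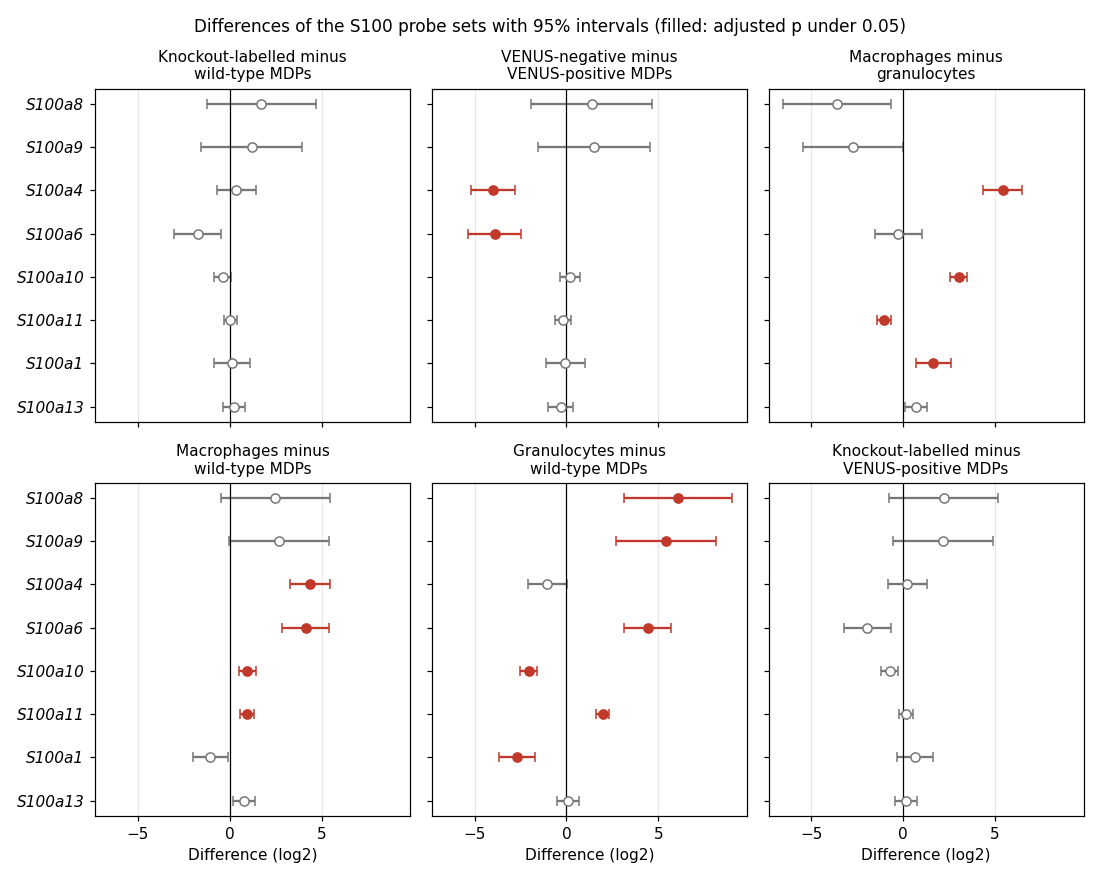
Differences of group means (log2, horizontal axes) of the 8 members in the 6 comparisons, with limma's 95% intervals; filled red points have an adjusted p under 0.05 over 28898 probe sets. S100a4 is filled at -4.00 between the VENUS groups and at 5.41 between macrophages and granulocytes, and no member is filled between knockout-labelled and wild-type MDPs.

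Each mature population was also set against wild-type MDPs, and these comparisons share the wild-type arrays. In macrophages 4 members were higher and none lower, where 22.2% of all probe sets were called, 10.9% higher and 11.3% lower. They were S100a4 (difference 4.37, 20.6-fold, SE 0.50, adjusted p = 1.63e-05), S100a6 (4.13, 17.5-fold, SE 0.60, adjusted p = 1.34e-04), S100a10 (0.96, adjusted p = 0.00501) and S100a11 (0.93, adjusted p = 0.00111). S100a8 and S100a9 differed by 2.48 and 2.67 (adjusted p = 0.252 and 0.169). S100a1 was not called either, at -1.06 (adjusted p = 0.116 by limma). Without wild-type pool 3, 7 members were higher, with S100a8 at 4.80 (adjusted p = 2.48e-04), S100a9 at 4.82 (adjusted p = 1.17e-04), S100a13 at 0.97 (adjusted p = 0.0361), S100a4 at 5.19 and S100a6 at 5.12. The arrays of 6 members did not overlap, as for 43.6% of all probe sets.

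In granulocytes 6 members passed the test, 4 higher and 2 lower than in wild-type MDPs, where 41.7% of all probe sets were called, 20.2% higher and 21.5% lower. S100a8 was higher by 6.08 (SE 1.37, adjusted p = 0.00251) and S100a9 by 5.39 (SE 1.27, adjusted p = 0.00336), with both granulocyte signals at the top of the array scale, so no fold is given. Without wild-type pool 3 these differences were 8.39 and 7.54. S100a6 was higher by 4.41 (adjusted p = 3.13e-05) and S100a11 by 1.96 (adjusted p = 5.42e-07). S100a10 fell by 2.05 (SE 0.22, adjusted p = 3.32e-06) and S100a1 fell by 2.69 (SE 0.45, adjusted p = 2.04e-04). S100a4 differed by -1.05 (adjusted p = 0.107), by -1.63 without wild-type pool 1 (adjusted p = 0.0121) and by -0.23 without wild-type pool 3. The arrays of the 6 called members did not overlap, as for 51.1% of all probe sets. Of 8 NK cell markers 7 were also higher in granulocytes than in wild-type MDPs, with list means of 6.56 to 7.29 against 4.39, 4.40 and 5.42. Against macrophages, with list means of 4.61 to 4.86, 7 of these markers were higher in granulocytes. Between these spleen populations 27.8% of all probe sets were called, 11.3% of all being higher in granulocytes. Their part in the S100 differences of either comparison was not tested. Set side by side, S100a6 and S100a11 were higher than in wild-type MDPs in both mature populations, and S100a10 was higher in macrophages and lower in granulocytes.

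Annexin A2 and the scaffold protein AHNAK form a complex with S100a10, and their genes were read beside it. In VENUS-negative MDPs Ahnak was at 6.30 and 6.76 and in VENUS-positive MDPs at 10.62, 10.39 and 10.75, a difference of -4.06 (SE 0.34, adjusted p = 4.44e-06). Anxa2 was at 7.20 and 7.42 against 8.68, 8.86 and 9.48, a difference of -1.70 (SE 0.27, adjusted p = 0.00146), although in a fit of only these arrays its adjusted p was 0.0578. Both were thus lower where the S100a10 arrays overlapped. In granulocytes Anxa2 was at 11.82, 11.62 and 11.61, with a macrophage minus granulocyte difference of -0.52 (adjusted p = 0.134), while S100a10 was 3.01 higher in macrophages. Ahnak was higher in macrophages than in granulocytes by 2.13 (adjusted p = 1.06e-04). In knockout-labelled minus wild-type MDPs the differences were 0.020 for Ahnak and 0.22 for Anxa2.

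**Figure D5:**
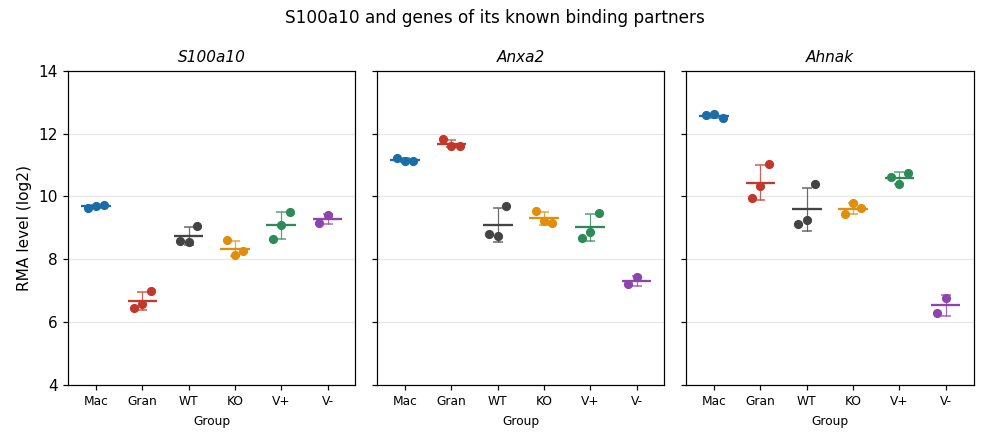
RMA levels (log2, vertical axis) of S100a10, Anxa2 and Ahnak on the 17 arrays, by group as abbreviated for the plot of all members; points are pools, bars means and whiskers SD. In V- the Ahnak points (6.30 and 6.76) and the Anxa2 points (7.20 and 7.42) lie below all V+ points, while the S100a10 points do not.

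Of 12 annexin genes listed, 11 were measured. None was called in knockout-labelled minus wild-type MDPs by limma (1 at an unadjusted p under 0.05). Between the VENUS groups Anxa9 was higher in VENUS-negative MDPs (2.47) and Anxa6 (-1.87) and Anxa2 were lower, beside 5.46% of all probe sets called. The call of Anxa6 was lost without VENUS-negative pool 1 (-1.32, adjusted p = 0.110). In knockout-labelled minus VENUS-positive MDPs, with 1.82% of all probe sets called, Anxa11 was lower, at 5.28 against 7.01. Its call was lost without knockout-labelled pool 1 or 2 or VENUS-positive pool 2 or 3 (adjusted p = 0.0558 to 0.0990). Macrophages had 3 annexins higher and 3 lower than granulocytes, beside 27.8% of all probe sets called, with Anxa5 at 3.08 and Anxa11 at -1.99 the largest each way. Each mature population had 5 higher and 1 lower than wild-type MDPs, where 22.2% (macrophages) and 41.7% (granulocytes) of all probe sets were called, and the median annexin difference was 0.81 in macrophages and 0.33 in granulocytes, beside medians of -0.0047 and 0.081 over all probe sets.

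The receptors and binding partners of S100 proteins were represented by 20 measured genes of 22. In knockout-labelled minus wild-type MDPs limma called none, and 4 had an unadjusted p under 0.05. Tlr4, the receptor of calprotectin, was at 6.06 against 4.60 in that comparison (difference 1.46, adjusted p = 0.465). In VENUS-negative MDPs 4 were lower, Ahnak, Cd69 (-2.51), Emb (-2.45) and Tlr2 (-1.54), and 1 was higher, Tpm1. Beside these, 5.46% of all probe sets were called, 2.56% higher and 2.89% lower. Emb encodes embigin, a membrane glycoprotein reported to bind S100 proteins. The call of Cd69 was lost without VENUS-positive pool 2 or 3 or VENUS-negative pool 1 (adjusted p = 0.0740, 0.0550 and 0.283), and that of Tlr2 without VENUS-negative pool 2 (adjusted p = 0.0779).

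In the mature populations the receptor and partner genes were read beside the share of all probe sets called. Granulocytes had 9 higher and 5 lower than wild-type MDPs, where 41.7% of all probe sets were called, among them Cd33 (5.77), Tlr4 (4.0) and Ager, which encodes RAGE (3.38), higher, and Cd69 (-3.81) lower. Macrophages had 9 higher and 3 lower, beside 22.2% of all probe sets, with Cd36 (3.04), Ahnak (2.98) and Tlr4 (2.81) higher and Cd69 (-3.54) lower. Directly compared, macrophages had 6 higher and 4 lower than granulocytes, beside 27.8% of all probe sets, with Cd36 (3.53) and Ahnak higher and Cd33 (-3.85) and Ager (-2.42) lower. In knockout-labelled minus VENUS-positive MDPs, 1.82% of all probe sets were called. Of this list Cd33 (1.55) and Ly96 (1.47), the gene of the TLR4 co-receptor MD-2, were higher there. The call of Ly96 was lost without knockout-labelled pool 1 or 3 or VENUS-positive pool 1 or 2 (adjusted p = 0.0850 to 0.111), and in a fit of only these arrays Cd33 had an adjusted p of 0.214.

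Transcription factors known to act on S100a8 and S100a9 in myeloid cells were measured for 10 of 11 genes. None was called in knockout-labelled minus wild-type MDPs by limma (3 at an unadjusted p under 0.05). In VENUS-negative MDPs, where S100a8 and S100a9 arrays lay above the VENUS-positive ones without passing the test, Cebpb (-1.54, adjusted p = 0.0243) and Spi1 (-1.47, adjusted p = 1.39e-04) were lower. That compares with 5.46% of all probe sets called between the VENUS groups. Cebpb lost its call without VENUS-positive pool 1 or 2 or without either VENUS-negative pool (adjusted p = 0.0697 to 0.136). In knockout-labelled minus VENUS-positive MDPs 2 were higher, Gfi1 (9.12 against 7.36) and Cebpd (7.51 against 6.62), beside 1.82% of all probe sets called. Gfi1 lost its call without any single array of these groups (adjusted p = 0.0644 to 0.150). Cebpd lost it without knockout-labelled pool 1 or VENUS-positive pool 1 or 2 (adjusted p = 0.0518 to 0.0751). Both mature populations had 7 higher and 2 lower than wild-type MDPs, where 22.2% (macrophages) and 41.7% (granulocytes) of all probe sets were called. Directly compared, macrophages had 1 factor higher and 5 lower than granulocytes, beside 27.8% of all probe sets called. The higher one was Cebpa, at 9.74 ± 0.21 in macrophages against 6.92 ± 0.39 in granulocytes (SD, n = 3 and 3). Cebpd, which encodes C/EBP delta, was lower in macrophages than in granulocytes (difference -1.93, adjusted p = 1.51e-06). Gfi1, a transcriptional repressor needed for granulocyte development, was lower in macrophages than in granulocytes by a difference of -3.76.

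The rest of the S100 family was read in the same way. Of 10 further family genes 7 were measured, and only S100a3 was called, at -0.47 in macrophages minus granulocytes and 0.46 in granulocytes minus wild-type MDPs. In these comparisons 27.8% and 41.7% of all probe sets were called. Its means of 2.83 in macrophages, 3.31 in granulocytes and 2.85 in wild-type MDPs lay about or below the lower quartile of the arrays (3.18 to 3.42), so these values do not show a level above background. The first call did not stand in 10 of 15 alternatives and the second in 11 of 14. Both counts include the fit without dim probe sets, where S100a3 was filtered out and so not tested. No gene of this list passed limma's test in the other 4 comparisons (1 at an unadjusted p under 0.05, in macrophages minus wild-type MDPs).

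The genes whose probe sets ran most like each member over the 17 arrays were named by Pearson's r, as a description. For S100a8 they were Ngp (0.924), Snx11 (0.919) and Camp (0.915), and for S100a9 Snx11 (0.945), Ngp (0.915) and Pygl (0.910). S100a4 ran with Dusp22 (0.971), Ptpro (0.952) and Tubb6 (0.951), and S100a6 with Pik3r6 (0.980), Cd52 (0.974) and Ifi27l2a (0.964). Nearest to S100a10 was Tmem176b (0.955), to S100a11 Trim11 (0.979), to S100a1 Bphl (0.950) and to S100a13 Rp2 (0.905). Among the members themselves, S100a6 and S100a11 correlated at 0.868 and S100a1 and S100a11 at -0.80. These values share the steps between groups and the same 17 arrays.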

How the data were processed

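Mouse cells sorted into 6 groups were measured on 17 arrays. The deposited values are log2 expression levels that the authors made with Affymetrix Expression Console and RMA, as the submitters' processing notes name them (per the labels' processing fields, without versions). The method subtracts background, equalises the array distributions and summarises the probes of a probe set. Values near the top and bottom of the array scale can be compressed. No source used here names the genome build of the array. Sorted cells were lysed directly and their RNA was labelled as biotinylated cRNA, per the labels' protocols.

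Of 45037 probe sets, 28898 carried 1 gene symbol in the platform annotation, 551 several and 15588 none. Group means were compared with limma 3.58.1 in R 4.3.3 in 1 fit of all 17 arrays (11 residual and 3.11 prior degrees of freedom), two-sided, with p-values adjusted over the 28898 probe sets by the Benjamini-Hochberg method and called under 0.05. No probe set was left out for low signal. For genes of lists and markers the brightest probe set on average was used. SE is limma's, SD is the spread over pools, and a fold is 2 to the power of the difference. The p-values reflect only how pools of a group vary, and precision is limited by the number of arrays. The step was tested on simulated data.

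The genes named are the members, up to 4 called genes per list and comparison with the largest difference, the 3 genes most like each member and Irf8. Tpm1, Csf1r, and the values of Ahnak, Anxa2, Tlr4 and Camp where they were not called, were added after the values were seen. The members and lists were chosen with earlier results of these data known. The dendritic cells that the design text names were not analysed here. Alternatives covered normalization, dim probe sets, 1 probe set per gene, arrays in the fit, pool number as a block, the variance prior, array weights and each array left out.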

Additional observations from a re-analysis of the deposited data

Results flagged for a closer look

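The effect on S100a4 differed between the MDP comparisons. Its knockout-labelled minus wild-type difference was 0.36 (SE 0.50), its VENUS-negative minus VENUS-positive difference was -4.00 (SE 0.56), and the test of the difference between them gave 4.36 (SE 0.75, adjusted p = 0.00401 by limma). Every knockout-labelled array (8.12 to 8.73) lay within the wild-type range (6.83 to 9.63), whose upper end is wild-type pool 3 alone, and above pools 1 and 2 (6.83 and 7.53). Without pool 3 the knockout-labelled minus wild-type difference was 1.18 and the difference between the effects 5.18. Both VENUS-negative arrays (3.92 and 4.34) lay below all VENUS-positive ones (7.85 to 8.41).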

How the results depend on the processing

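The 56 differences (8 members in 6 comparisons and the test between effects) were refitted 840 times. Direction and side of the threshold were kept in 780 refits, the call was lost in 8 and gained in 29, and 23 changed sign, none of them a called difference. S100a4 and S100a6 kept their calls between the VENUS groups with each array left out (-4.21 to -3.79 and -4.34 to -3.47). Leaving out single arrays gave 0 to 2 called members in knockout-labelled minus wild-type MDPs, 4 to 7 in macrophages minus wild-type MDPs, 0 to 1 in knockout-labelled minus VENUS-positive MDPs and 1 to 2 in the test between effects. Each of these highest counts came without wild-type pool 3, and without VENUS-positive pool 1 knockout-labelled minus VENUS-positive MDPs also gave 1. In granulocytes minus wild-type MDPs the call of S100a4 was gained without wild-type pool 1. In macrophages minus granulocytes the call of S100a1 was lost without macrophage pool 2 or 3 or granulocyte pool 2 or 3. That of S100a13 was gained there without granulocyte pool 1, and those of S100a8 and S100a9 without wild-type pool 3. Leaving wild-type pool 3 out of comparisons that do not use it was chosen after seeing the data. Array weights gave 7 called members in macrophages minus wild-type MDPs.

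Pool numbers did not pair the samples: 14 of 17 correlations of same-numbered pools were under 0.1 (-0.075 to 0.13). A fit of only the compared arrays with the pool number as a replicate block called 0 members between the VENUS groups (S100a4 -3.86, adjusted p = 0.0688; S100a6 -3.65, adjusted p = 0.148), 0 in the test between effects (S100a4 4.08, adjusted p = 0.0646) and 1 in knockout-labelled minus VENUS-positive MDPs (S100a9, adjusted p = 0.0349), and S100a1 lost its call between the spleen populations (adjusted p = 0.0804). With that block the test between effects gave -0.50 for S100a8, and with array weights 0.046 for S100a9. The cause was not tested.

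Some uncalled differences changed sign when an array was left out. In knockout-labelled minus wild-type MDPs these were S100a1 from -0.056 to 0.36, S100a13 from -0.0059 to 0.43, S100a8 from -0.092 to 4.04, S100a4 from -0.22 to 1.18, S100a9 from -0.21 to 3.34 and S100a11 from -0.094 to 0.22. In VENUS-negative minus VENUS-positive MDPs these were S100a10 from -0.020 to 0.41 and S100a1 from -0.86 to 0.74. In granulocytes minus wild-type MDPs it was S100a13 from -0.20 to 0.39. In knockout-labelled minus VENUS-positive MDPs it was S100a13 from -0.11 to 0.27. In the difference between the knockout and VENUS effects these were S100a1 from -0.61 to 0.99, S100a8 from -1.46 to 2.67 and S100a9 from -1.68 to 1.86.

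Counts of called list genes also moved. Between the VENUS groups the fit of only those arrays called 2 receptor and partner genes and 1 annexin in place of 5 and 3, and with the block it called none of these or of the transcription factors. In granulocytes minus wild-type MDPs it called 3 annexins in place of 6. In knockout-labelled minus VENUS-positive MDPs the receptor, annexin and factor counts of 2, 1 and 2 ran from 0 to 3, 0 to 2 and 0 to 2 over all alternatives. Low signals, as for S100a4 and S100a6 in VENUS-negative MDPs, and signals near the top of the arrays, as for S100a8 in granulocytes, limit the sizes of differences.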
